A study of Mus musculus with 31 samples.

Results

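Integrin subunits and a set of their ligands were described in CD11b+ microglia and temporo-occipital cortex of mice with the PLCγ2-P522R variant. The members were chosen by gene symbol and are 46 of the 55401 genes in the count tables: 18 integrin alpha subunits, 8 beta subunits, 16 genes of the extracellular matrix, the cell-surface ligands *Icam1*, *Icam2* and *Vcam1*, and *Fermt3*, a kindlin that activates integrins in blood-derived cells and microglia. A member was described in a table when it had at least 10 counts in at least 3 libraries. This held for 42 members in CD11b+ cells of male mice, 44 in CD11b+ cells of female mice and 42 in cortex, for 44 in at least 1 table and for 41 in every table. *Itga2* and *Itgb6* were below the minimum everywhere, *Itgad* and *Itga11* in the male table, and *Itgad* and *Itgae* in cortex.

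Integrins are cell-surface receptors built from 1 alpha and 1 beta subunit. Microglia carry the leukocyte integrins, in which the common beta subunit *Itgb2* pairs with *Itgam* (CD11b), *Itgax* (CD11c) or *Itgal*, and they carry the alpha-v integrins, in which *Itgav* pairs with *Itgb5*, *Itgb3*, *Itgb8* or *Itgb1* and binds RGD-containing ligands such as fibronectin. Collagen IV, laminins and nidogen form the basement membrane of brain vessels, and collagens I and III are made mainly by fibroblasts of the meninges and perivascular space. *Plcg2*, in which the variant lies, acts downstream of immune receptors and integrins in myeloid cells.

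The libraries, 31 in all, came from mice of 13 months of age on a C57BL/6J background. CD11b+ cells were isolated from whole brain with magnetic beads from male wild-type mice (WT, n = 3) and male mice homozygous for the knock-in (KI, n = 4), neither with the APP/PS1 transgenes, and from female mice of 3 genotypes, with 7 libraries of A-/wt/wt, in which A is the transgene pair and the second part the *Plcg2* genotype, 4 of A+/wt/wt and 4 of A+/ki/ki. Temporo-occipital cortex was taken from females only and gave 4 libraries of A+/wt/wt, 4 of A+/ki/ki and 1 of A-/wt/wt. A+ mice carry human mutant presenilin and a chimeric mouse and human APP with the Swedish mutation, both driven by the mouse prion protein promoter and so not restricted to 1 cell type, and the knock-in was made by CRISPR/Cas9 and is present in every cell. Each library is 1 mouse, and the labels give no litters, so p-values measure the spread between these mice. *Itgam* encodes CD11b, the target of the beads, so that its level is a level in cells chosen for it.

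Depth was 16.2 to 25.1 M counts in CD11b+ cells and 25.2 to 43.1 M counts in cortex. The number 236 names both an A-/wt/wt mouse among the CD11b+ samples and an A+/wt/wt mouse among the cortices, and both genotypes were used as given. The labelled cell type was checked with 8 microglia markers, whose summed level was 10560 to 23950 CPM (counts per M counts after TMM scaling) in the CD11b+ libraries and 365 to 791 CPM in cortex, with none at 0. RNA of other brain cells was present in every CD11b+ library and varied between them. The sum of 8 oligodendrocyte markers ranged from 6934 CPM (A+/ki/ki mouse 394) to 74180 CPM (A-/wt/wt mouse 223, in which microglia markers summed to 10560 CPM), and that of 12 neuron markers from 160 CPM (A+/ki/ki mouse 405) to 4054 CPM (A-/wt/wt mouse 223). Among the male KI libraries, mouse 104 stood apart, with microglia markers at 23000 CPM and endothelial markers at 1435 CPM against 13780 to 18140 and 2515 to 3129 CPM in the other KI mice. In bulk RNA, a change in the number of cells of a type and a change in RNA per cell cannot be told apart. *Plcg2* itself did not pass the test in any comparison (log2FC −0.36, SE 0.11, adjusted p 0.0581 in KI males, and adjusted p of at least 0.211 elsewhere).

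*Itgam*, *Itgax* and *Itgad* lie next to each other on the plus strand of chromosome 7 (GRCm38, 128062640 to 128118491, 128129547 to 128150657 and 128154376 to 128223816). *Itgb2*, which pairs with all of them, is on chromosome 10 (77530252 to 77565708, plus strand), *Itgb5* on chromosome 16 (33829665 to 33949338, plus strand), *Itgb3* on chromosome 11 (104608000 to 104670476, plus strand), *Fn1* on chromosome 1 (71585520 to 71653200, minus strand) and *Ccn1* on chromosome 3 (145646976 to 145649981, minus strand). Reads were counted without regard to strand, and 16 members share exon sequence with a gene on the other strand and 5 with a gene on the same strand, so that their counts are uncertain to that extent. *Fn1* shares 292 bases with *Apol7d*, and *Itgam* shares 3450 bases of its 5.024 kb of exon with *Gm49368*, so the level of *Itgam* per length is uncertain. *Col4a1* and *Col4a2* start 21 bases apart in opposite directions on chromosome 8 (11312826 and 11312805).

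The promoters of *Itgax* and *Ccn1* are shown because these were the members whose level differed between A+/wt/wt and A-/wt/wt CD11b+ cells, and that of *Itgam* because it is the neighbour of *Itgax* and did not pass the test. Each line gives the 250 bases before the transcription start of the RefSeq annotation of GRCm38.p6, 5′ to 3′ on the gene's strand, with motif matches in capitals. The windows are chr7:128129300-128129549 (plus strand) for *Itgax*, chr7:128062390-128062639 (plus strand) for *Itgam* and chr3:145649986-145650235 (minus strand) for *Ccn1*. 
Itgax: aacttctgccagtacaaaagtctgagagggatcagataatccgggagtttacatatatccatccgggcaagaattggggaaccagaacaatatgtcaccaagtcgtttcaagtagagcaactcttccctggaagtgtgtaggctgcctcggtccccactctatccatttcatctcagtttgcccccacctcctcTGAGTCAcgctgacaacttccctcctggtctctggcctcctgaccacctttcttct
Itgam: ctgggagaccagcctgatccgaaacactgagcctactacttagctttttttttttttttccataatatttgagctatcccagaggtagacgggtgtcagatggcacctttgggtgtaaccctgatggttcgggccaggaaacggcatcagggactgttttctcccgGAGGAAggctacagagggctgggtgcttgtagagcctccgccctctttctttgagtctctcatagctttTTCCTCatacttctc
Ccn1: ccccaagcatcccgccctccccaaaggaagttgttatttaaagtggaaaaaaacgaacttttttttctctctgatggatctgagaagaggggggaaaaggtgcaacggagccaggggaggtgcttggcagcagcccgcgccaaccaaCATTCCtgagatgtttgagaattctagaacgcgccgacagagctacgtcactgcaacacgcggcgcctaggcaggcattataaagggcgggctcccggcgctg
The letters searched on both strands were TGANTCA (AP-1), GAGGAA (the core of PU.1-type ETS sites), GGAATG (TEAD) and the CArG box of SRF. The window of *Itgax* held TGAGTCA from 56 to 50 bases before the start, that of *Itgam* held GAGGAA from 84 to 79 and its reverse complement TTCCTC from 15 to 10 bases before, and that of *Ccn1* held CATTCC, the reverse complement of the TEAD letters, from 103 to 98 bases before. Of 32817 promoter windows of this length, 6.75% held the AP-1 letters, 23.3% the ETS letters, 12.6% the TEAD letters and 1.47% a CArG box. Of the 46 members, 31 had a window in the table, and of these 1, 13, 5 and 2 held them. A match describes letters in the window and not a site in use.

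The beta subunits *Itgb5* and *Itgb2* had the highest medians per kb of exon in every group of CD11b+ cells. Because long genes collect more reads, levels of different genes were compared as CPM per kb of exon. In A+/wt/wt mice, *Itgb5* had a median of 440 CPM per kb (range 354 to 475, n = 4), *Itgb2* 167 (115 to 185), *Itgax* 98.8 (38.0 to 124), *Itgam* 78.5 (69.8 to 103) and *Itgb1* 77.8 (71.4 to 82.8), followed by *Fermt3* with 35.0 (26.7 to 38.2). The range of *Itgb5* lay above that of *Itgb2*, and that of *Itgb2* above those of *Itgam* and *Itgb1*, whereas *Itgax* spread widely and overlapped with *Itgb2*, *Itgam* and *Itgb1*. In A-/wt/wt mice the order was *Itgb5* (401 ± 100.2 CPM per kb, mean ± SD, n = 7), *Itgb2* (132 ± 30.9), *Itgam* (82.2 ± 15.2), *Itgb1* (82.0 ± 8.75) and *Fermt3* (44.7 ± 9.53), whereas *Itgax* had 8.29 ± 3.09. *Fn1* and *Lamb2* were the most abundant matrix members of these cells, *Fn1* first in A+/wt/wt mice (24.9 ± 4.66 CPM per kb) and *Lamb2* first in A-/wt/wt mice (30.0 ± 6.85 CPM per kb).

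In cortex, the order was *Itgb5* (28.3 ± 3.72 CPM per kb, A+/wt/wt, n = 4), *Itgb1* (14.2 ± 0.952), *Itgav* (9.46 ± 0.802), *Itgb2* (6.31 ± 0.763) and *Itgb8* (5.78 ± 0.690), and the ranges of *Itgb2* and *Itgb8* overlapped. The alpha-v subunit and *Itgb8*, which astrocytes and neurons also express, thus ranked higher in tissue than in CD11b+ cells. Set beside each other in A+/wt/wt mice, in tables that were normalized separately and with no test, 27 of 44 members had lower CPM in every cortex library than in every CD11b+ library, 6 had higher CPM and 11 overlapped. The shares of all genes in these classes were not determined, so the counts are not a result about the members. The median CPM in CD11b+ cells was 30.1 times that in cortex for *Itgam* (395 and 13.1 CPM), 27.9 times for *Itgax* (475 and 17.0 CPM), 25.7 times for *Itgb2* (510 and 19.9 CPM) and 22.4 times for *Icam1* (78.2 and 3.49 CPM). The members with higher CPM in cortex were *Itga8*, *Itga11*, *Itgav*, *Itgb8*, *Col1a1* and *Tnc*.

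**Figure D1:**
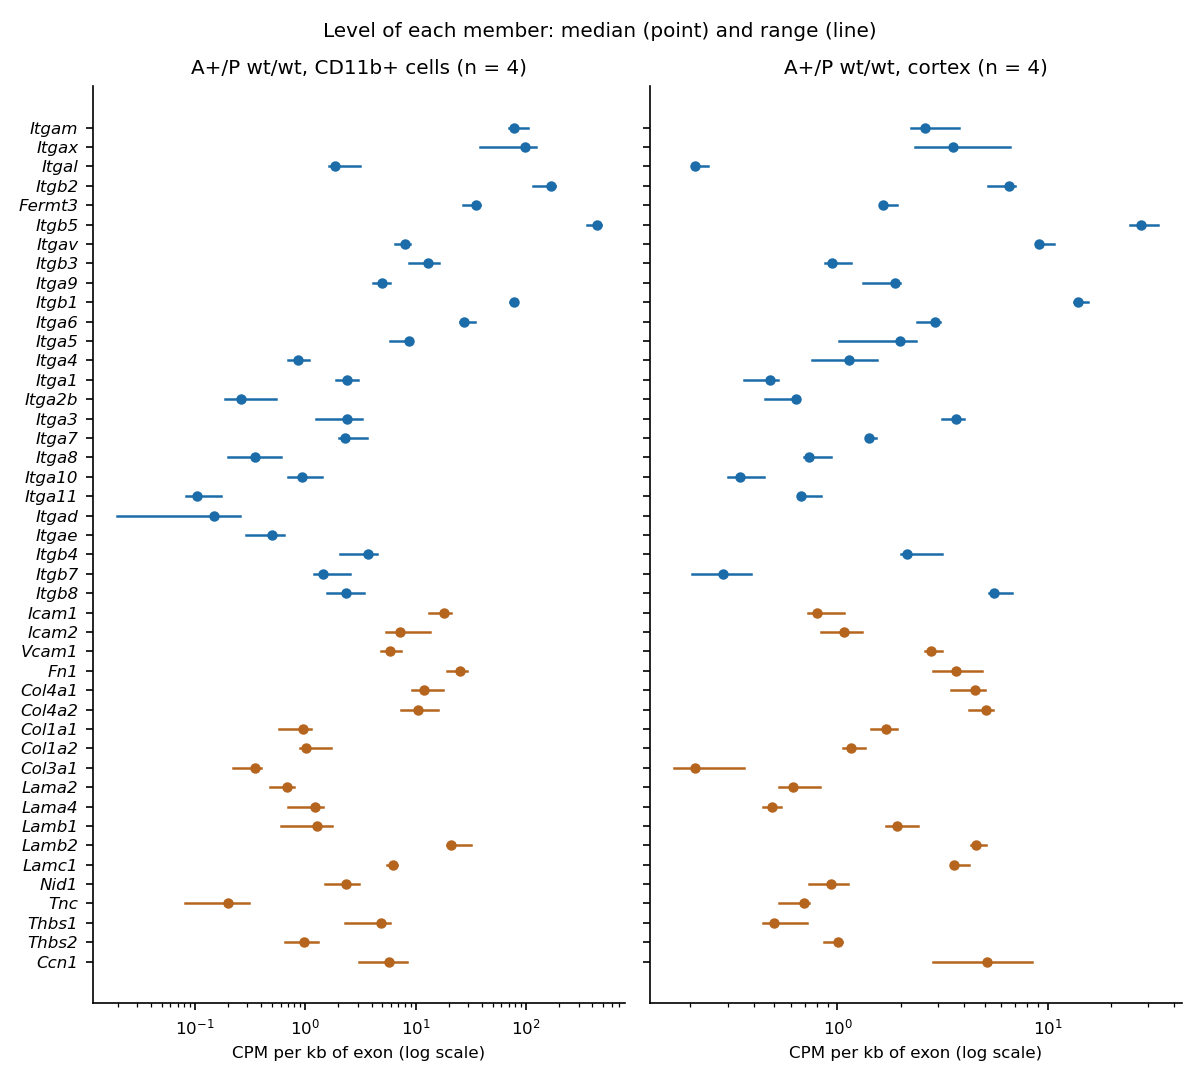
Level of each described member in A+/wt/wt CD11b+ cells (left, n = 4) and cortex (right, n = 4) as CPM per kb of exon on a log axis; points are medians and lines the range of the libraries, integrins and *Fermt3* in blue and ligands in brown. *Itgb5* is highest in both, and *Itgax* and *Itgam* lie close to *Itgb1* in CD11b+ cells but below *Itgav* in cortex.

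The APP/PS1 transgenes were compared on wild-type *Plcg2* in female CD11b+ cells, to ask which integrin genes differ in microglia from a brain with amyloid. The batch tag of the labels differs between the transgene groups, so that batch and transgene cannot be told apart. *Itgax* rose and *Ccn1*, a secreted matrix protein that binds alpha-v and *Itgam* integrins, fell, and the other 42 of 44 tested members did not pass the test (edgeR's quasi-likelihood test, Benjamini-Hochberg adjusted p under 0.05). The 1 member called higher and the 1 called lower compare with 1.01% of all 17355 genes tested called higher and 0.282% called lower. The groups did not overlap for 2 of 44 members (4.55%), against 3.34% of all genes tested. Without A- mouse 223 or without A+ mouse 331, 4 members were called (9.09%, against 2.88% and 1.59% of all genes).

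*Itgax* (CD11c, a subunit that microglia near amyloid plaques are known to express) had 182, 446, 503 and 597 CPM in the 4 A+/wt/wt libraries. In the 7 A-/wt/wt libraries it ranged from 22.7 to 60.9 CPM, with a median of 36.3 CPM. The lowest A+ library, mouse 331, was thus above every A- library, and the fitted difference was 10.97-fold (log2FC 3.46, SE 0.33, adjusted p 0.000179). Mouse 331 was also lowest in microglia markers among the A+/wt/wt mice, with 10850 CPM against 15390 to 18530 CPM. Per 1000 CPM of microglia markers, a ratio added after the data were seen, *Itgax* was 16.8 to 37.9 CPM in A+/wt/wt and 1.59 to 3.26 CPM in A-/wt/wt mice.

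*Ccn1* had 6.16, 9.78, 13.4 and 16.9 CPM in A+/wt/wt mice and 27.4 to 37.8 CPM (median 32.7 CPM) in A-/wt/wt mice. Every A+ library was below every A- library (log2FC −1.47, SE 0.23, adjusted p 0.00607). The level in male WT mice, which carry no transgenes, was 19.2 to 28.3 CPM in a separately normalized table. Markers of border macrophages were lower in all 7 of 7 genes (median log2FC −1.01, 2 called; summed level 186 to 219 CPM in A+/wt/wt and 260 to 591 CPM in A-/wt/wt, none at 0), as were 8 of 8 neutrophil markers (39.2 to 115.5 and 67.6 to 576 CPM), and their part in the result was not tested. Endothelial markers were higher in 2 of 10 genes, with 1336 to 2503 CPM in A+/wt/wt and 1313 to 2243 CPM in A-/wt/wt mice. Platelet markers summed to 8.08 to 9.78 CPM in A+/wt/wt and 11.3 to 21.7 CPM in A-/wt/wt mice, without overlap. Of these 6 markers, 3 could be tested, of which 1 was higher and 1 was called lower (log2FC −1.14 to 1.70). Mural markers were lower in 7 of 8 genes, with 420 to 460 CPM in 3 A+/wt/wt mice and 778 CPM in mouse 331, against 492 to 933 CPM in A-/wt/wt mice, and the part of these cells was not tested.

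*Itgb2*, the beta subunit that pairs with *Itgax*, and *Itgam*, another alpha subunit of *Itgb2*, did not pass the test. *Itgb2* had 351, 494, 526 and 565 CPM in A+/wt/wt mice and 245 to 531 CPM (median 445 CPM) in A-/wt/wt mice (log2FC 0.28, SE 0.21, adjusted p 0.776). *Itgam* had 351, 386, 404 and 518 CPM against 274 to 516 CPM with a median of 438 CPM (log2FC 0.02, SE 0.18, adjusted p 0.998). The ranges of both overlapped, and the lowest A- library for both was mouse 223, in which microglia markers summed to 10560 CPM against 14910 to 19060 CPM in the other A- mice. Relative to 1000 CPM of microglia markers, *Itgb2* was 30.5 to 33.4 CPM in A+/wt/wt and 20.1 to 27.8 CPM in A-/wt/wt mice, without overlap, and *Itgam* 25.1 to 32.3 and 22.8 to 30.6 CPM, with overlap. The markers themselves were higher in 2 of 8 genes (median log2FC −0.12, 0 called). Such a ratio changes with its markers as well, and the share of all genes without overlap on this scale was not determined.

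Among the alpha-v integrins, *Itgb3* had 51.7, 67.2, 85.2 and 96.5 CPM in A+/wt/wt mice and 37.4 to 62.8 CPM (median 55.4 CPM) in A-/wt/wt mice (log2FC 0.55, SE 0.19, adjusted p 0.242). Its level per 1000 CPM of microglia markers was 4.37 to 5.41 CPM in A+ and 2.79 to 3.70 CPM in A- mice. The alpha subunit *Itgav* had 70.0, 79.9, 91.5 and 94.9 CPM against 84.8 to 118 CPM with a median of 99.3 CPM (log2FC −0.24, SE 0.12, adjusted p 0.554). *Itgb1*, the most widely shared beta subunit, had 291, 299, 336 and 338 CPM against 278 to 391 CPM with a median of 337 CPM (log2FC −0.07, SE 0.12, adjusted p 0.966). *Fn1* had 227, 264, 328 and 343 CPM against 104 to 391 CPM with a median of 300 CPM (log2FC 0.12, SE 0.31, adjusted p 0.98). The groups overlapped for each of these genes, although 3 of 4 A+ libraries were above the A- range for *Itgb3* and 2 of 4 below it for *Itgav*.

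*Vcam1*, a ligand of *Itga4* integrins on endothelium, missed the threshold with 43.2 to 66.1 CPM in A+/wt/wt and 64.7 to 94.8 CPM in A-/wt/wt mice (log2FC −0.54, SE 0.14, adjusted p 0.0875 with edgeR). It was called lower without A- mouse 223 or without A+ mouse 331, and by DESeq2's Wald test with all libraries. That test called 1 member higher and 2 lower (6.82% of members, against 3.66% of all genes). Of the 16 matrix members, 8 were higher and 8 lower, with a median log2FC of −0.04 against −0.03 over all genes tested. Of genes outside the member list, 0 of 39 integrin adaptors and activators, 1 of 36 other matrix genes and 0 of 10 other cell-surface ligands were called. The gene called was *Spp1*, osteopontin, an RGD ligand of alpha-v integrins (log2FC 2.81, SE 0.38, adjusted p 0.00232).

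**Figure D2:**
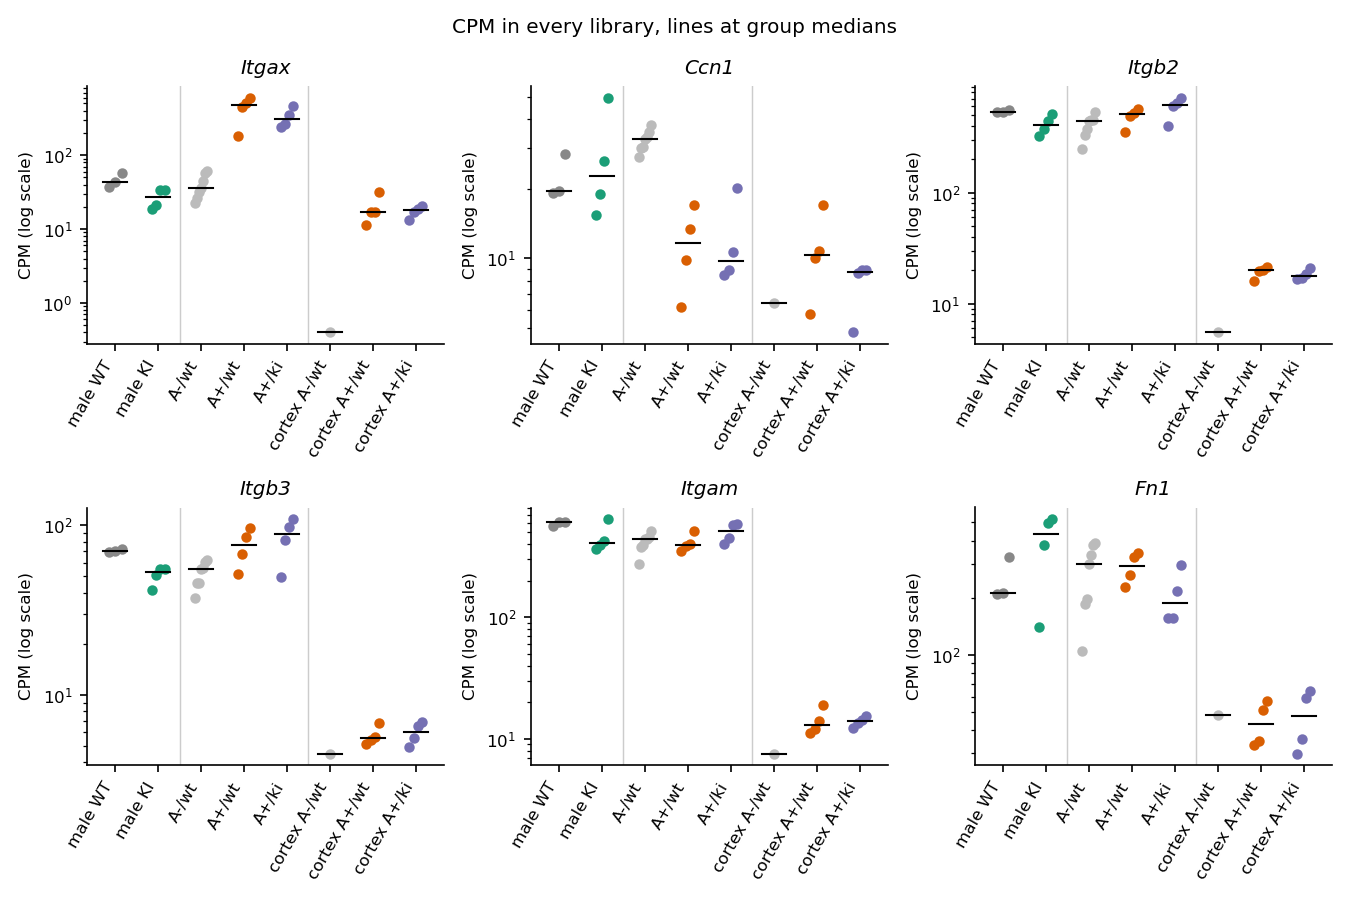
CPM of 6 members in every library by group on log axes, with lines at group medians; male, female and cortex tables were normalized separately and are parted by vertical lines. *Itgax* of the 4 A+/wt/wt CD11b+ libraries (182 to 597 CPM) lies above all 7 A-/wt/wt libraries (22.7 to 60.9 CPM) and *Ccn1* below, whereas *Itgam* and *Fn1* overlap.

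The single A-/wt/wt cortex gave values in tissue, without a test since there is 1 library. *Itgax* had 17 counts (0.41 CPM) in this library and 11.2, 16.8, 17.2 and 31.8 CPM in the A+/wt/wt cortices, whose median was 42.0 times as high. *Itgb2* had 5.53 CPM against 15.9 to 21.4 CPM, *Itgam* 7.56 CPM against 11.2 to 19.0 CPM, and *Itgb5* 55.6 CPM against 87.3 to 118.5 CPM. Microglia markers were lower in this library as well, with 365 CPM against 624 to 791 CPM. Per 1000 CPM of these markers, *Itgax* was 1.11 CPM against 17.3 to 40.1 CPM and *Itgb2* 15.2 CPM against 25.5 to 30.5 CPM, whereas *Itgam* (20.7 against 18.0 to 24.0 CPM) and *Itgb5* (152 against 140 to 154 CPM) lay within the range of the A+/wt/wt cortices. Of 42 members, 10 were below, 3 above and 29 within the range of the 8 APP/PS1 cortices. *Ccn1* (6.39 CPM against 4.80 to 17.0 CPM) was within it. The share of all genes outside that range was not determined, so the counts are not a result about these members.

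The knock-in was compared with wild type in males, to ask what the variant does without amyloid. Of 42 members tested, 3 passed: *Itgb3* and *Itga9* fell, and *Icam2* rose. That is 7.14% of the members, against 16.4% of all 16373 genes (11.1% higher and 5.26% lower). The groups did not overlap for 10 of 42 members (23.8%), against 30.7% of all genes. Leaving out 1 library decided how many members were called: without KI mouse 104, 17 members were called higher and 9 lower (of all genes, 20.2% and 13.3%). Without WT mouse 94 or 102 none was called (6.89% and 5.52% of all genes were). Leaving out WT mouse 101, KI mouse 136 or KI mouse 139 left 1 member called each time (2.38%, against at least 7.63% of all genes). Without KI mouse 84, 5 were called (15.8% of all genes). With all libraries, DESeq2's Wald test called 9 of 42 members (21.4%, against 22.7% of all genes), and edgeR without the count minimum called 15 of 46 (32.6%, against 10.4% of all genes).

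*Itgb3*, the beta subunit that pairs with *Itgav* in microglia and *Itga2b* in platelets, had 69.1, 70.3 and 72.2 CPM in WT mice. In KI mice it had 41.5, 50.9, 55.1 and 55.1 CPM (log2FC −0.48, SE 0.11, adjusted p 0.0228). *Itga9*, which pairs with *Itgb1* and binds tenascin-C and *Vcam1*, had 82.0, 83.0 and 87.3 CPM in WT and 56.0, 62.9, 67.5 and 70.6 CPM in KI mice (log2FC −0.39, SE 0.10, adjusted p 0.0306). *Icam2*, an endothelial and leukocyte ligand of *Itgb2* integrins, had 15.3, 16.6 and 18.7 CPM in WT and 20.6, 24.4, 27.2 and 32.1 CPM in KI mice (log2FC 0.63, SE 0.16, adjusted p 0.0294). All KI libraries were on 1 side of all WT libraries for each of them, mouse 104 included. *Itga9* did not pass without the count minimum (adjusted p 0.111) or without any 1 library other than KI mouse 104 (adjusted p up to 0.195). *Itgb3* did not pass without any 1 of the WT mice (adjusted p up to 0.135), nor *Icam2* without WT mouse 94 or 102 or KI mouse 136 or 139 (adjusted p up to 0.105).

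The leukocyte integrins pointed down without passing. *Itgax* had 36.7, 43.6 and 56.5 CPM in WT and 18.9, 21.4, 33.5 and 34.1 CPM in KI mice (log2FC −0.76, SE 0.23, adjusted p 0.0533). *Itgb2* had 529, 534 and 560 CPM in WT and 327, 377, 443 and 510.4 CPM in KI mice (log2FC −0.39, SE 0.15, adjusted p 0.115). The KI values of both genes were below all WT values. *Itgam* had 570, 607 and 611 CPM in WT and 363 to 428 CPM in 3 KI mice and 642 CPM in the other (log2FC −0.39, SE 0.19, adjusted p 0.189), and here mouse 104 was the one above all WT mice. *Itgav* had 115, 116 and 120 CPM in WT and 81.7, 90.7, 98.6 and 109 CPM in KI mice, again without overlap (log2FC −0.30, SE 0.11, adjusted p 0.0871). *Itgb1* overlapped, with 376, 388 and 403 CPM in WT and 324, 372, 382 and 389 CPM in KI mice (log2FC −0.08, SE 0.11, adjusted p 0.615). Of 15 alpha subunits, 10 were lower, and of 7 beta subunits 4 were. The higher ones included *Itga1*, *Itga3*, *Itga7*, *Itgb4* and *Itgb8* (log2FC 0.41 to 0.81, adjusted p of at least 0.0835).

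Of the 16 matrix members, 15 were higher and none passed (median log2FC 0.55, against −0.00 over all genes, 3 at an unadjusted p under 0.05). *Fn1*, fibronectin, had 209.9, 212 and 328.5 CPM in WT and 139, 379, 494 and 520 CPM in KI mice (log2FC 0.61, SE 0.38, adjusted p 0.298). *Col4a1* behaved alike, with 91.2 to 123 CPM in WT and 78.6, 167, 174 and 209 CPM in KI mice (log2FC 0.58, SE 0.28, adjusted p 0.173). The lowest KI value of both was that of mouse 104. This mouse had the lowest KI value in 15 of 16 matrix members and was within or below the WT range in all 16, whereas the other 3 KI mice were all above the WT range for 10. The share of all genes with these patterns was not determined, so the counts are not a result about matrix genes. *Thbs1*, thrombospondin-1, was the matrix member that went the other way (20.2 to 33.0 CPM in WT and 13.1 to 21.3 CPM in KI mice, log2FC −0.67, SE 0.20, adjusted p 0.0518).

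**Figure D3:**
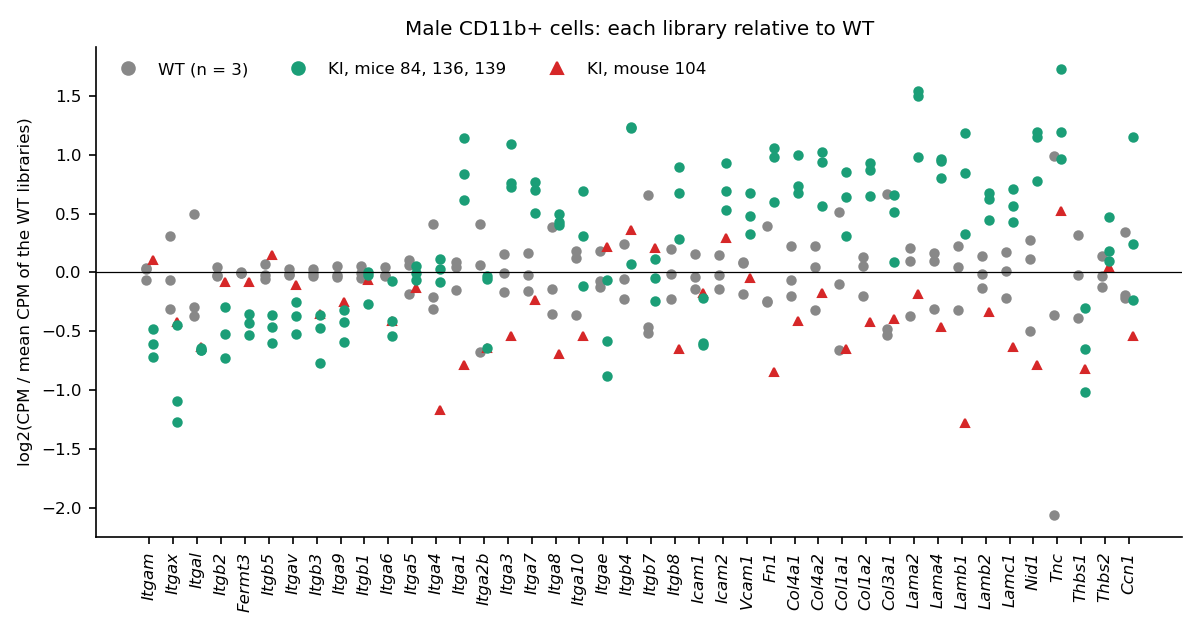
log2 ratio of each male CD11b+ library to the mean CPM of the 3 WT libraries for 42 members, with WT in grey, KI mice 84, 136 and 139 in green and KI mouse 104 as red triangles. The red triangles lie within or below the WT range for all 16 matrix members, all green points lie above WT for 10 of them, and all KI points of *Itgb3*, *Itga9*, *Itgav* and *Itgb2* lie below WT. The share of all genes with the patterns of the matrix members was not determined.

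Markers of other cells moved with these members. Microglia markers were lower in 8 of 8 genes (median log2FC −0.42, 1 called; 13780 to 23000 CPM in KI and 22880 to 23950 CPM in WT mice). Endothelial markers were higher in 10 of 10 genes (median 0.75, 2 called; 1435 to 3129 and 1265 to 1815 CPM), mural markers in 8 of 8 (519.5 to 1087 and 599 to 681 CPM), fibroblast markers in 8 of 8 (82.7 to 143 and 68.5 to 95.1 CPM), and 12 of 12 neuron and 8 of 8 astrocyte markers were called higher (595 to 1364 and 181 to 269 CPM for neurons). Oligodendrocyte markers were higher in 8 of 8 genes (median 1.06, 5 called) and had the highest sums, 26480 to 60410 CPM in KI and 18450 to 23290 CPM in WT mice, without overlap. Those of oligodendrocyte precursors were higher in 5 of 5 genes (1 called; 66.1 to 130 and 48.3 to 65.2 CPM), and those of choroid plexus and ependyma in 6 of 6 tested (2864 to 9120 and 2848 to 4783 CPM). None of these genes was at 0. Of 6 platelet markers, 1 was at 0 and 3 could be tested, all lower (1 called; 11.3 to 26.1 CPM in KI and 22.3 to 24.5 CPM in WT mice). Neutrophil markers were higher in 8 of 8 genes (median log2FC 0.66, 0 called), with 110 to 241 CPM in KI and 118 to 163 CPM in WT mice. What part these markers had in the results was not tested.

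Set against the markers as a ratio chosen after the data were seen, *Itgb3* per 1000 CPM of microglia markers was 2.40 to 3.69 CPM in KI and 2.89 to 3.16 CPM in WT mice, *Itga9* 3.07 to 4.12 and 3.53 to 3.65 CPM, *Itgax* 1.24 to 1.85 and 1.53 to 2.47 CPM, and *Itgam* 23.6 to 27.9 and 23.8 to 26.7 CPM. For these genes the genotypes overlapped. Per 1000 CPM of endothelial markers, *Col4a1* was 54.8 to 66.7 CPM in KI and 63.5 to 72.1 CPM in WT mice, *Fn1* 96.9 to 169.9 and 134 to 181 CPM, and *Icam2* 8.69 to 14.4 and 10.3 to 12.1 CPM, likewise with overlap. *Lamc1* (23.4 to 27.8 and 32.4 to 35.3 CPM) and *Lamb2* (medians of 95.4 and 113.5 CPM), laminin subunits of vessel walls, were lower in every KI mouse on this scale, although their log2FC on the CPM scale was 0.35 and 0.40. Per 1000 CPM of mural markers, *Lamb2* was 267 to 276 CPM in KI and 265 to 293 CPM in WT mice, with overlap.

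**Figure D4:**
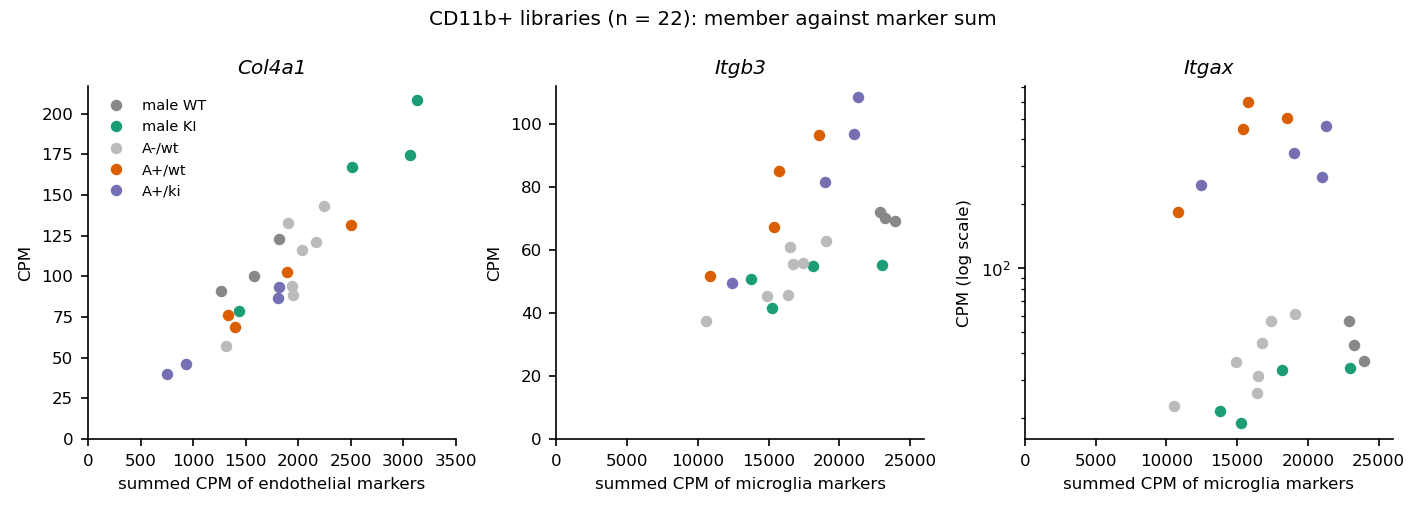
CPM of *Col4a1* against the summed CPM of endothelial markers and CPM of *Itgb3* and *Itgax* against that of microglia markers in the 22 CD11b+ libraries; each point is 1 mouse, and the *Itgax* axis is a log axis. *Col4a1* rises along with the endothelial sum in all groups, and *Itgax* of every A+ mouse (at least 182 CPM) stands above that of every mouse without the transgenes (at most 60.9 CPM).

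Of the lists outside the members, 6 of 39 integrin adaptors and activators (15.4%), 6 of 35 other matrix genes (17.1%) and 2 of 10 other cell-surface ligands were called in KI males, against 16.4% of all genes. The called adaptors were *Fyb* (log2FC −0.74, SE 0.10, adjusted p 0.00385), *Dock2*, *Apbb1ip*, *Ptk2b* and *Tln2*, which were lower, and *Fyn*, which was higher (log2FC 0.84, SE 0.18, adjusted p 0.0161). *Fyb* and *Apbb1ip* link receptor signals to talin and integrin activation in leukocytes. The called matrix genes were *Tnr*, *Vtn*, *Edil3*, *Ccn2* and *Mfge8*, which were higher (log2FC 0.67 to 1.93), and *Col15a1*, which was lower (log2FC −0.48, SE 0.09, adjusted p 0.00968). *Icam5* and *Thy1*, both expressed by neurons, were the called ligands (log2FC 1.97 and 1.82).

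On the APP/PS1 background, the knock-in was compared with wild-type *Plcg2* in CD11b+ cells of females, to ask what the variant does in the presence of amyloid. None of the 44 members tested passed the test of edgeR (adjusted p of at least 0.853, 3 at an unadjusted p under 0.05), and 0% of all 17039 genes did. DESeq2's Wald test called none of the members, against 0.0411% of all genes. The groups overlapped for all 44 members, against 2.81% of all genes that did not.

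*Itgax* had 244, 266, 344 and 459.5 CPM in A+/ki/ki mice and 182, 446, 503 and 597 CPM in A+/wt/wt mice (log2FC −0.46, SE 0.35, adjusted p 0.853). *Itgam* had 403, 448, 576 and 583 CPM against 351, 386, 404 and 518 CPM (log2FC 0.22, SE 0.16, adjusted p 0.853), and *Itgb2* had 399, 598, 638 and 717 CPM against 351, 494, 526 and 565 CPM (log2FC 0.22, SE 0.20, adjusted p 0.853). The lowest A+/ki/ki value of these genes was that of mouse 335, the library with the fewest microglia markers of its group (12440 CPM against 19010 to 21290 CPM). Microglia markers were higher in 8 of 8 genes (median log2FC 0.22, 0 called), and their part in these values was not tested. Per 1000 CPM of microglia markers, *Itgax* was 12.7 to 21.6 CPM in A+/ki/ki and 16.8 to 37.9 CPM in A+/wt/wt mice. On this scale *Itgam* was 23.6 to 32.4 and 25.1 to 32.3 CPM, and *Itgb2* 30.4 to 33.7 and 30.5 to 33.4 CPM. *Itgb1* had 289, 376, 390 and 396 CPM against 291, 299, 336 and 338 CPM (log2FC 0.14, SE 0.12, adjusted p 0.853), and *Itgav* 74.7, 105, 108 and 116 CPM against 70.0, 79.9, 91.5 and 94.9 CPM (log2FC 0.20, SE 0.15, adjusted p 0.853). Both overlapped.

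The matrix members were lower in 15 of 16 genes, none of which passed (median log2FC −0.56, against 0.00 over all genes). *Fn1* had 156, 156, 217 and 297 CPM in A+/ki/ki and 227, 264, 328 and 343 CPM in A+/wt/wt mice (log2FC −0.55, SE 0.25, adjusted p 0.853). The members with the lowest p were *Thbs2*, thrombospondin-2 (3.05 to 5.22 and 4.63 to 9.24 CPM, log2FC −0.79, SE 0.27), *Col1a2* (4.91 to 11.3 and 11.1 to 21.2 CPM, log2FC −0.92, SE 0.34) and *Col3a1* (1.27 to 2.75 and 2.20 to 3.91 CPM, log2FC −0.75, SE 0.31). Mice 394 and 405 had the lowest A+/ki/ki values in 14 of 16 matrix members. The share of all genes with this pattern was not determined, so the count is not a result about matrix genes. Both mice also had the lowest sums of endothelial markers (933 and 757 CPM, against 1810 and 1818 CPM in the other A+/ki/ki and 1336 to 2503 CPM in A+/wt/wt mice). Endothelial markers were lower in 10 of 10 genes (median log2FC −0.49), as were 8 of 8 fibroblast (35.3 to 75.6 and 52.8 to 103 CPM) and 12 of 12 neuron markers (160 to 1888 and 775 to 1537 CPM). Oligodendrocyte markers, lower in 8 of 8 genes, summed to 6934 and 7111 CPM in mice 394 and 405, against 27460 and 64380 CPM in the other A+/ki/ki and 21910 to 50790 CPM in A+/wt/wt mice. Those of choroid plexus and ependyma, lower in 6 of 6 tested, summed to 160 and 113 CPM in these mice, against 905 and 2387 CPM in the other A+/ki/ki and 598 to 2732 CPM in A+/wt/wt mice. Neutrophil markers were higher in 8 of 8 genes, with 32.9 to 1591 CPM in A+/ki/ki and 39.2 to 115.5 CPM in A+/wt/wt mice. No marker was at 0, and their part in the result was not tested. *Col4a1* per 1000 CPM of endothelial markers was 48.1 to 53.1 CPM in A+/ki/ki and 49.0 to 57.1 CPM in A+/wt/wt mice.

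*Icam1*, the ligand of *Itgb2* integrins that inflammatory signals induce, had 54.5, 87.8, 124 and 282 CPM in A+/ki/ki and 57.8, 75.7, 80.8 and 92.1 CPM in A+/wt/wt mice (log2FC 0.77, SE 0.45, adjusted p 0.853). The highest value was that of mouse 394, and of the other A+/ki/ki mice 1 was below, 1 within and 1 above the A+/wt/wt range. None of 39 adaptors and activators, 35 other matrix genes and 10 other cell-surface ligands was called.

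The KI effect in males and that in APP/PS1 females were compared in an interaction term, in which sex, transgenes and batch tag differ together and cannot be told apart. None of the 44 members passed with edgeR (smallest adjusted p 0.143, 17 at an unadjusted p under 0.05), and 0% of all 17619 genes did. The share of all genes at an unadjusted p under 0.05 was not determined. DESeq2's Wald test called 2 of 44 members (4.55%, against 6.73% of all genes), *Col1a2* and *Lama2*. The difference in log2FC was positive for 15 of 16 matrix members (median 1.10, against 0.01 over all genes), for example 1.53 (SE 0.48) for *Col1a2*, 1.80 (SE 0.57) for *Lama2* and 1.18 (SE 0.50, adjusted p 0.166) for *Fn1*. It was −0.57 (SE 0.27, adjusted p 0.194) for *Itgam*, −0.57 (SE 0.27, adjusted p 0.196) for *Itgb2*, −0.47 (SE 0.20, adjusted p 0.162) for *Itgav*, −0.26 (SE 0.47, adjusted p 0.717) for *Itgax* and −0.19 (SE 0.16, adjusted p 0.426) for *Itgb1*. Without A+/ki/ki mouse 335, 7 members were called positive and 10 negative (of all genes, 19.9% and 15.6%), and *Itgam*, *Itgb2*, *Itgav*, *Itgb3* and *Fermt3* were among the negative ones. The marker lists differed as well, with 10 of 10 endothelial markers positive (median 1.22), 12 of 12 neuron markers positive (median 3.00) and 8 of 8 microglia markers negative (median −0.65). Of 8 neutrophil markers, 0 were positive (median −2.09), and mouse 335 had the highest neutrophil sum of the CD11b+ libraries (1591 CPM). The part of these markers in the result was not tested.

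**Figure D5:**
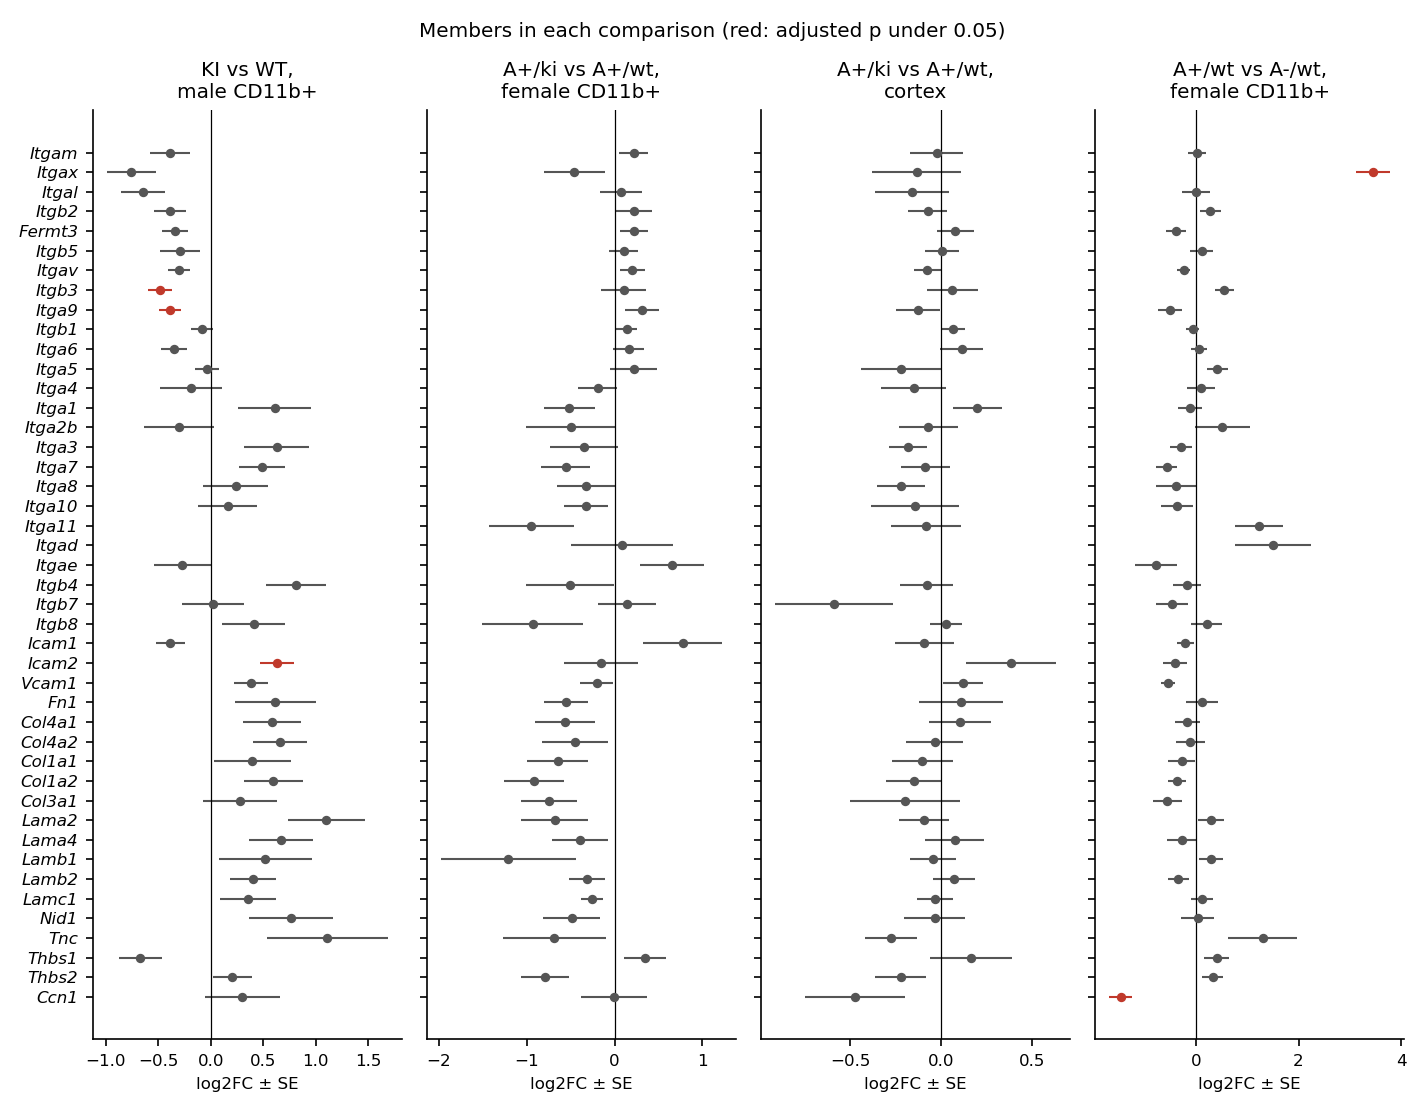
log2FC ± SE of each tested member in the 4 comparisons, with adjusted p under 0.05 (edgeR) in red; the axes have different ranges. *Itgb3*, *Itga9* and *Icam2* are red in KI males and *Itgax* and *Ccn1* in A+/wt/wt against A-/wt/wt females, 15 of 16 matrix members lie to the right of 0 in KI males and 15 of 16 to the left in A+/ki/ki CD11b+ cells, with *Thbs1* the exception in both, and none is red in the A+/ki/ki comparisons.

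In cortex of APP/PS1 mice, the knock-in made no difference that could be detected with 4 mice per group and at these depths in any of 42 members. None passed with edgeR (adjusted p 1 for every member, 0 at an unadjusted p under 0.05), and 0% of all 18640 genes did. DESeq2's Wald test called none of the members, against 0.059% of all genes. The groups overlapped for every member, against 1.85% of all genes that did not. *Itgax* had 13.2, 17.1, 18.9 and 20.6 CPM in A+/ki/ki and 11.2, 16.8, 17.2 and 31.8 CPM in A+/wt/wt cortex (log2FC −0.13, SE 0.25). *Itgam* had 12.4, 13.5, 14.3 and 15.3 CPM against 11.2, 12.1, 14.1 and 19.0 CPM (log2FC −0.02, SE 0.15), and *Itgb2* 16.6, 17.2, 18.5 and 20.8 CPM against 15.9, 19.7, 20.0 and 21.4 CPM (log2FC −0.07, SE 0.11). All A+/ki/ki values of these 3 genes lay within the A+/wt/wt range. *Itgb1* had 57.8, 60.9, 61.2 and 62.6 CPM against 54.3, 56.0, 58.1 and 63.3 CPM (log2FC 0.07, SE 0.06), and *Itgav* 89.5, 94.0, 96.9 and 105 CPM against 96.2, 97.5, 98.5 and 114.5 CPM (log2FC −0.08, SE 0.07). *Fn1* spread most, with 30.0, 35.9, 59.0 and 64.2 CPM against 33.2, 34.9, 50.9 and 56.9 CPM (log2FC 0.11, SE 0.23). The SE of the log2FC was at most 0.25 for these 6 genes, and at most 0.35 in CD11b+ cells of the same genotypes.

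Of the 16 matrix members, 5 were higher and 11 lower in A+/ki/ki cortex (median log2FC −0.04, against −0.00 over all genes), and microglia markers were higher in 4 of 8 genes (639 to 715 and 624 to 791 CPM). Endothelial markers were higher in 10 of 10 genes, none called (median log2FC 0.28; 233 to 374 and 206 to 303 CPM). None of 41 adaptors and activators, 36 other matrix genes and 9 other cell-surface ligands was called.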

How the data were processed

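RNA-seq of 31 libraries was analysed. Per the labels and the study's methods, the authors trimmed paired-end reads of oligo(dT)-selected RNA with Trimmomatic 0.39, aligned them with STAR 2.7.9a to GRCm38 (Gencode M25) and, per gene, counted primary alignments with 1 location using featureCounts 2.12.0, irrespective of strand, and these raw counts were deposited. The deposited DESeq2 variance-stabilized log2 values served here only for limma.

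A gene entered a comparison with 10 or more counts in 3 or more of its libraries. After TMM scaling, edgeR 4.0.16 (R 4.3.3) was used for quasi-likelihood tests, two-sided and on the libraries of each comparison alone, with Benjamini-Hochberg adjustment over all genes tested and a threshold of 0.05. The F statistic and the log2FC gave the SE. The test was checked on simulated data. CPM were calculated after TMM scaling of all libraries of a table, and lengths are the summed exons of Gencode M21 (same build; 43 of 46 members had the same versioned ID). Libraries held 16.2 to 43.1 M counts, and the SE of a log2FC holds both counting error and the spread between mice.

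Also tried were DESeq2 1.42.0 (its size factors, and its Wald test), filterByExpr or no count minimum, limma 3.58.1, a joint fit of each whole table, and omission of each library. Values are given in full for called members and for *Itgam*, *Itgax*, *Itgb2*, *Itgb1*, *Itgav* and *Fn1* in every comparison. The members, lists and this rule were chosen with earlier results of these data known. Other members named, and the ratios to marker sums, were chosen after their values were seen.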

Additional observations from a re-analysis of the deposited data

Results flagged for a closer look

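In groups of 4 to 10 mice, a value was marked when its gap to the nearest other mouse was above Dixon's 95% limit for the group's range, which chance alone does in about 1 in 20 groups; 13 of 258 groups of a member were marked. In cortex these were *Itgav* (114.5 CPM) and *Itga2b* (2.48 CPM) in A+/wt/wt mouse 329, *Itga11* (4.29 CPM) in A+/wt/wt mouse 257, *Ccn1* (4.80 CPM) in A+/ki/ki mouse 216 and *Thbs1* (5.40 CPM) in A+/ki/ki mouse 203. In female CD11b+ cells they were *Fermt3* (142.7 CPM), *Itgb4* (51.1 CPM) and *Lama2* (15.5 CPM) in A-/wt/wt mouse 223, which also had the most neuron markers, *Thbs1* (32.7 CPM) in A-/wt/wt mouse 242, *Itga8* (2.76 CPM) in A+/ki/ki mouse 244 and *Itga9* (33.1 CPM) in A+/ki/ki mouse 335. In male CD11b+ cells they were *Itga8* (2.61 CPM) and *Lama4* (10.5 CPM) in KI mouse 104. No member differed between the KI effects of males and APP/PS1 females past the threshold.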

How the results depend on the processing

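Of the alternatives for single members, 488 kept direction and side of the threshold, 14 lost the call, 10 gained one and 9 turned in sign, all 9 with a library left out. In KI males, 3 members were called (16.4% of all genes), 15 with no count minimum (10.4%), 9 by DESeq2's Wald test (22.7%) and 0 to 26 with 1 library left out (5.52% to 33.5%). For A+/wt/wt against A-/wt/wt mice, 2 were called (1.29% of all genes), and 2 to 4 with 1 library left out (0.529% to 2.88%). DESeq2's Wald test called 1 higher and 2 lower (3.66%). *Itgax* and *Ccn1* were called in every alternative. For the difference of KI effects, 0 were called (0% of all genes), 2 by DESeq2's Wald test (6.73%) and 0 to 17 with 1 library left out (0% to 35.4%). The cause of these changes was not tested, except that leaving out a library tests fewer samples. The log2FC that turned in sign with a library left out were not called: in cortex *Fn1* (−0.066 to 0.27), *Itgam* (−0.12 to 0.15) and *Itgax* (−0.32 to 0.21), and for A+/wt/wt against A-/wt/wt mice *Itgam* (−0.11 to 0.082) and *Fn1* (−0.037 to 0.23). With all libraries and another scaling, filter or tool, the adjusted p of *Itgb3* in KI males was 0.00332 to 0.0378, of *Icam2* 0.00474 to 0.0355 and of *Itga9* 0.00799 to 0.111. No paired analysis was possible because the groups compared share no mouse numbers.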
